A study of Mus musculus with 36 samples.

Results

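Keratin filament and desmosome genes, 10 in number, are described here in RNA sequencing counts from the forebrain of mouse embryos with graded loss of *Chd8*, a chromatin remodeller. They are the keratins *Krt10*, *Krt5*, *Krt8*, *Krt14*, *Krt18* and *Krt19*, the desmosome components *Dsp*, *Pkp1* and *Pkp2*, and the kinase *Ripk4*, 10 of the 46603 genes in each count table. They were chosen by their measured counts: *Krt10* and *Dsp* were higher in the heterozygous than in the wildtype neocortex, and the other members were listed with them as genes of surface epithelium. The fall of *Ripk4* in the hypomorphs was also known when the list was made. Values in the heterozygotes are therefore given as description, without a test.

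The libraries at E12.5 came from the neocortex of 4 genotypes with 3 embryos each, 1 embryo per library, on a C57Bl/6J background. These were *Chd8* +/+ (wildtype), +/- (1 null allele lacking exon 3), neo/neo (2 copies of an allele with a neomycin resistance cassette after exon 3, the mild hypomorph) and neo/- (1 cassette allele over the null allele, the severe hypomorph). The null and cassette alleles were present in every tissue of these embryos. By the study's methods, +/-, neo/neo and neo/- mice were bred from different crosses, and replicates came from different litters. Genotype and cross therefore cannot be told apart. The E10.5 libraries came from telencephalic vesicles, with 2 embryos pooled per library and 3 libraries per group. The Ctrl group is labelled as a combination of *Chd8* f/f and f/+ embryos, and the cKO group as sox1-Cre; *Chd8* f/f, in which Cre removes exon 3 in the neural lineage, so that non-neural tissue in the same embryo keeps *Chd8*. The alleles with flanking loxP sites were thus shared by Ctrl and cKO. Each library held between 38774591 and 68488879 counts. Levels are CPM, counts relative to the effective library size, as mean ± SD with n = 3. In bulk tissue, fewer cells of a type and less RNA per cell cannot be told apart.

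Keratins are intermediate filament proteins that form heterodimers of a type I and a type II chain. *Krt5* with *Krt14* marks the basal layer of stratified epithelia, *Krt1* with *Krt10* the layers above it, and *Krt8* with *Krt18* and *Krt19* simple epithelia, including the early surface ectoderm. Desmosomes anchor these filaments at cell contacts: *Dsp* (desmoplakin) ties the filament to the junction, and the plakophilins *Pkp1* and *Pkp2* bind desmoplakin in the plaque. *Ripk4* is a kinase needed for the differentiation of keratinocytes. The neuroepithelium of the forebrain relies instead on adherens junctions and on nestin and vimentin filaments, so these genes are known there mainly as markers of neighbouring tissue.

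*Chd8* itself was first checked in every library. Its level was 237 ± 2.41 CPM in +/+, 167 ± 3.04 in +/-, 209 ± 5.64 in neo/neo and 149 ± 8.38 in neo/-, and 170.6 ± 12.005 in Ctrl against 121 ± 4.78 in cKO. No library of a mutant group reached the lowest control library of its stage. These counts cover the whole gene, so transcripts that still carry exons outside the deleted or interrupted part are included. The lists of forebrain progenitor and early neuron genes were abundant in every library, with summed levels of 2201 to 3853 CPM for the 10 progenitor genes.

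Promoter stretches are shown for the *Krt10* gene, whose level moved most regularly with genotype, and for 3 members with promoter entries that did not. Each runs over the 100 bases before the RefSeq start, in the direction of the gene (RefSeq, GRCm38.p6), with matches to the searched motifs in capitals. The motifs searched, on both strands, were the TATA box (TATAAA), the GC box (GGGCGG), the CCAAT box (CCAAT), an AP-2 motif (GCCNNNGGC) and an AP-1 motif (TGANTCA). Of the 10 members, 6 have an entry. That of *Krt14* starts inside the gene and is not used. That of *Krt5*, in which none of the motifs was found, is not shown.
Krt10 (chr11:99389365-99389464, minus strand): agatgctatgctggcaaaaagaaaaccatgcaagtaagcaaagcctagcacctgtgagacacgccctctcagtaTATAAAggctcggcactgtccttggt
Krt8 (chr15:102004343-102004442, minus strand): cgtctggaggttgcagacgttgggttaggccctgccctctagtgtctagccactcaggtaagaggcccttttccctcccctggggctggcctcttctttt
Krt18 (chr15:102028116-102028215, plus strand): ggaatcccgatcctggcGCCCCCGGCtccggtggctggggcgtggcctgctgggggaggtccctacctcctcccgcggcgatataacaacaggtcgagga
Dsp (chr13:38151194-38151293, plus strand): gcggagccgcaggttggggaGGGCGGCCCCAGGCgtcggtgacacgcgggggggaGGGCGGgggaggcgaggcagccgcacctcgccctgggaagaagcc

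The *Krt10* stretch holds TATAAA with its first base 26 bases before the start, a motif that 5.56% of 32851 promoter windows of this length hold. *Krt18* holds GCCNNNGGC at 83 bases, as do 6.78% of windows. *Dsp* holds GGGCGG at 80 and 45 bases, as do 24.7% of windows, and GCCNNNGGC at 75 bases, which overlaps the first GGGCGG by a single letter. None of the 5 motifs was found in the *Krt8* stretch.

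*Krt10* encodes the type I keratin of suprabasal epidermis (GRCm38 chromosome 11, 99385254 to 99389364, minus strand). Its level in the individual libraries was 5.66, 6.04 and 6.17 CPM in +/+, 8.29, 8.21 and 8.41 in +/-, 9.59, 9.49 and 9.33 in neo/neo, and 10.97, 11.36 and 11.37 in neo/-. The 4 genotypes did not overlap with each other at any step of this order, and the spread within each was small. The order is not that of the *Chd8* counts, which cover the whole gene and in which neo/neo lay above +/-. By the study's Western blots at E12.5, CHD8 protein was lower in neo/neo than in +/- and lowest in neo/-. The study's quantitative RT-PCR, at an earlier stage, also found fewer *Chd8* transcripts in neo/neo than in +/-. *Krt10* RNA rose in the order of genotypes in which CHD8 protein fell, and a link between them was not tested. In +/-, the level was 39.5% higher than in +/+ (log2 fold change 0.48, SE 0.07), the value on which the gene was selected. Of all 18810 genes tested, 0.0159% were called higher and 0.00532% lower in this comparison, and calls of the members are not counted in it because it chose them.

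In neo/neo, *Krt10* was 59.0% higher than in +/+ (log2 fold change 0.67, SE 0.07), with an adjusted p of 0.000408 by edgeR's quasi-likelihood test. In neo/-, it was 88.8% higher (log2 fold change 0.92, SE 0.07; adjusted p = 4.59e-06, same test). Both calls held in all 20 alternative analyses. These comparisons share their +/+ libraries with the one on which *Krt10* was selected, so they are not independent of that choice. In the separate libraries at E10.5, the level was 9.02, 8.36 and 8.16 CPM in Ctrl and 10.89, 10.001 and 9.75 in cKO. The groups did not overlap, and the difference was 19.98% (log2 fold change 0.26, SE 0.09), with an adjusted p of 0.0943 by edgeR that misses the threshold of 0.05.

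**Figure D1:**
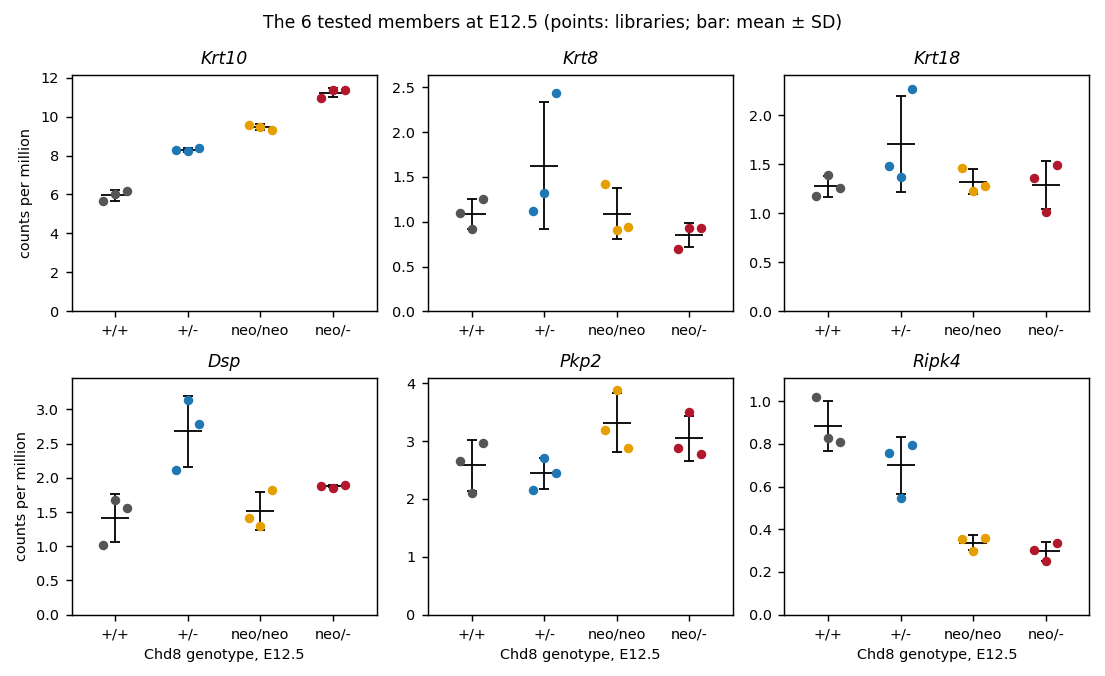
Level (CPM, linear axis from 0) of the 6 members that passed the filter on low counts at E12.5, by *Chd8* genotype; points are libraries and bars the mean ± SD (n = 3). *Krt10* rises from 5.66 CPM in the lowest +/+ library to 11.4 in neo/- with no overlap between genotypes, and *Ripk4* is at most 0.358 CPM in every hypomorph library.

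*Krt10* shares 146 exon bases with *Gm11940*, a gene on the opposite strand. The counting at E12.5 took no account of strand and discarded reads that fell on more than 1 gene, so reads of this stretch are missing from both genes, and sense and antisense reads elsewhere cannot be told apart. *Gm11940* had between 10 and 30 counts in the E12.5 libraries. It was higher in neo/- (log2 fold change 0.89, SE 0.25; adjusted p = 0.0319, edgeR), while the value in neo/neo was 0.62 (SE 0.25; adjusted p = 0.140, edgeR). The call in neo/- held in 10 of 20 alternatives and was lost without any 1 of the +/+ and neo/- libraries, with adjusted p-values by edgeR of 0.0502 to 0.102.

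The genes on either side of *Krt10* were looked up by position after the data had been seen. *Krt28*, a keratin of the hair follicle root sheath, lies 10351 bases downstream on chromosome 11 (99364872 to 99374903). It had 14, 8 and 15 counts in +/+, 12, 13 and 14 in +/-, 18, 37 and 24 in neo/neo, and 25, 22 and 39 in neo/-. All hypomorph libraries lay above all +/+ and +/- libraries. The log2 fold change was 1.13 (SE 0.31) in neo/-, with an adjusted p of 0.0312 by edgeR that held in 12 of 20 alternatives and was lost without any 1 of the +/+ libraries or the first or the third neo/- library (log2 fold change 0.81 to 1.30), and 0.93 (SE 0.32) in neo/neo, with an adjusted p of 0.0829 by edgeR. At E10.5, *Krt28* had 9, 8 and 13 counts in Ctrl and 26, 28 and 24 in cKO, a log2 fold change of 1.11 (SE 0.29) with an adjusted p of 0.0335 by edgeR that held in 2 of 11 alternatives and was lost without any 1 of the 6 libraries (log2 fold change 1.01 to 1.30). *Krt28* was singled out because of these values. The other tested neighbours, *Krt222*, *Gm11560* and *Eif1*, lay 141169 bases or more away and were not called in neo/neo or neo/-.

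**Figure D2:**
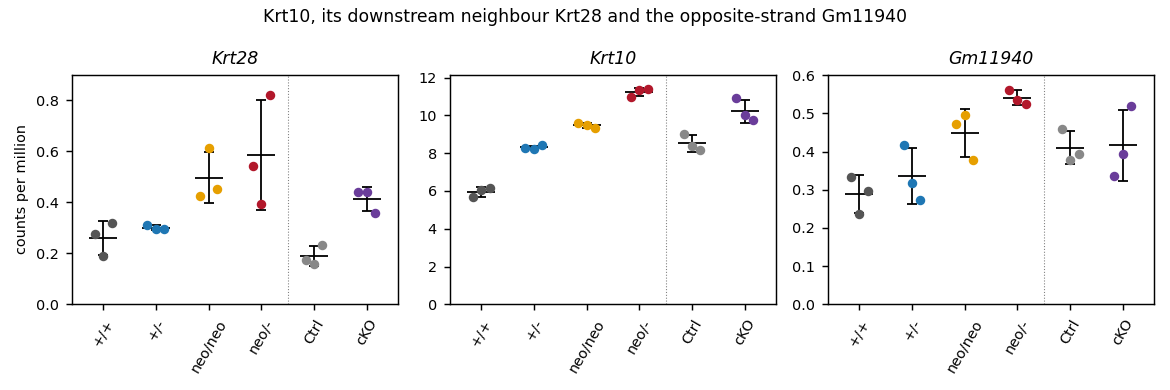
Level (CPM, linear axes from 0) of *Krt28*, *Krt10* and *Gm11940*, with E12.5 genotypes left and E10.5 groups right of the dotted line; points are libraries and bars the mean ± SD (n = 3). *Krt28* reaches 0.82 CPM in neo/- against at most 0.319 in +/+, while *Gm11940* overlaps between Ctrl and cKO.

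For *Krt1*, the type II partner of *Krt10*, all +/- libraries lay above those of +/+. It overlapped with +/+ in neo/neo and neo/-, and between all 3 mutant genotypes. Its level was 1.59 to 1.77 CPM in +/+, 1.82 to 2.00 in +/-, 1.35 to 2.37 in neo/neo and 1.64 to 2.05 in neo/-, and 0.597 to 1.06 in Ctrl against 0.638 to 0.776 in cKO. edgeR called it in none of the 4 comparisons, at an unadjusted p under 0.05 in 0 of them, and DESeq2 in 0.

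*Ripk4* (chromosome 16, 97741933 to 97763737, minus strand) had 52, 35 and 38 counts in the +/+ libraries. It had 29, 24 and 38 in +/-, 15, 18 and 19 in neo/neo, and 14, 14 and 16 in neo/-. The hypomorph libraries all lay below the +/+ and +/- libraries, and neo/neo and neo/- overlapped with each other. The mean level was 0.884 ± 0.116 CPM in +/+, 0.700 ± 0.134 in +/-, 0.337 ± 0.0339 in neo/neo and 0.296 ± 0.0436 in neo/-. The log2 fold change was -1.40 (SE 0.23) in neo/neo and -1.58 (SE 0.23) in neo/-, with adjusted p-values of 0.00378 and 0.000897 by edgeR's quasi-likelihood test. This fall was known when the list was made, so these p-values are not independent of the choice of the gene. The call in neo/neo held in 18 of 20 alternatives and that in neo/- in 19 of 20. DESeq2 gave log2 fold changes of -1.40 and -1.59 but no adjusted p for this gene in either comparison. From the second sequencing run alone, the value in neo/neo was -0.94 (adjusted p = 0.0611, edgeR), and from the first alone -1.90. In +/- the value was -0.34 (SE 0.21), given as description.

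At E10.5, *Ripk4* had 125, 193 and 176 counts in Ctrl and 185, 136 and 122 in cKO, and the groups overlapped. The log2 fold change was -0.41 (SE 0.23; adjusted p = 0.275, edgeR). The 2 nearest tested genes on each side of *Ripk4* at E12.5, *Bace2*, *Mx2*, *Prdm15* and *C2cd2*, were not called in either hypomorph. *Prdm15*, 27730 bases away, had log2 fold changes of 0.00 (SE 0.06) in neo/neo and -0.05 (SE 0.06) in neo/-.

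Of the 6 members tested in neo/neo, *Krt10* was called higher, against 3.71% of all genes, and *Ripk4* lower, against 4.45%. The same 2 members were called in neo/-, where 5.48% of all genes were higher and 5.99% lower. The fall of *Ripk4* was known when the list was made, and *Krt10* was selected against the same +/+ libraries. These counts are therefore description and not independent of the choice of members. The median log2 fold change over the 6 members was 0.08 in neo/neo and 0.13 in neo/-, beside 0.01 and 0.00 over all genes tested. The filter passed *Krt10*, *Krt8*, *Krt18*, *Dsp*, *Pkp2* and *Ripk4* at E12.5, and the other 4 members are given as counts only.

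**Figure D3:**
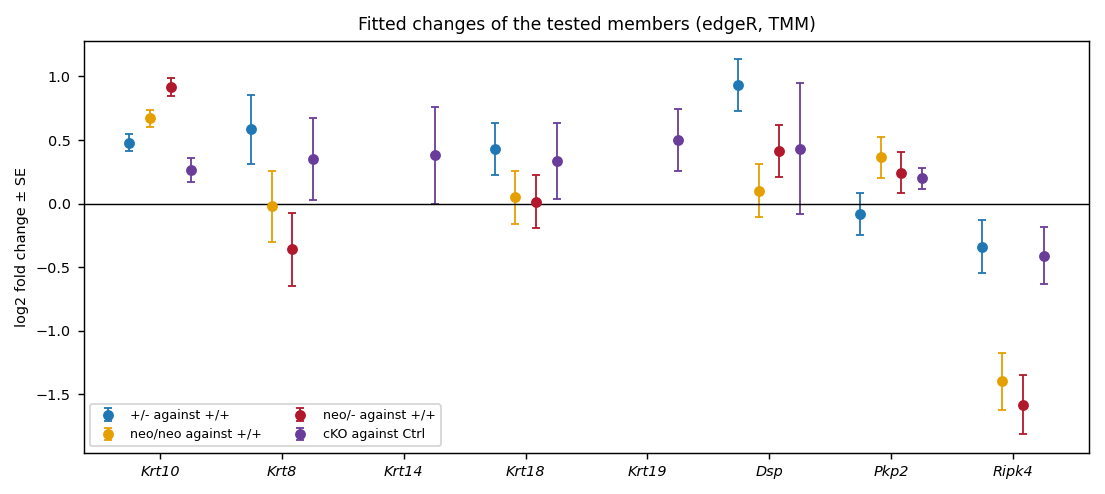
Fitted log2 fold change ± SE of each tested member in the 3 E12.5 comparisons with +/+ and in cKO against Ctrl; the horizontal line is no change. *Krt10* lies at 0.48, 0.67 and 0.92 in +/-, neo/neo and neo/-, *Ripk4* at -1.40 and -1.58 in the hypomorphs, and *Dsp* at 0.93 in +/-.

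*Dsp* (chromosome 13, 38151328 to 38198577, plus strand), the linker between keratin filaments and the desmosome, was the other member on which the list was selected. Its counts were 52, 71 and 73 in +/+, 81, 138 and 133 in +/-, 60, 78 and 97 in neo/neo, and 87, 104 and 90 in neo/-. Scaled to depth, the +/- libraries reached 2.11, 3.14 and 2.79 CPM, above the 1.02, 1.675 and 1.55 of +/+. The log2 fold change in +/- was 0.93 (SE 0.20), and it was 0.81 without the second +/- library. In neo/neo the value was 0.10 (SE 0.21; adjusted p = 0.811, edgeR), with a 95% interval of -0.30 to 0.51. In neo/- it was 0.41 (SE 0.20; adjusted p = 0.213, edgeR), with an interval of 0.01 to 0.82. The neo/- libraries, between 1.86 and 1.89 CPM, lay above those of +/+ but missed the threshold. *Dsp* shares 465 exon bases with *Gm10129* on the opposite strand, which had at most 1 count in any library.

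*Pkp2* (chromosome 16, 16213318 to 16272712, plus strand), a plakophilin that is also found outside stratified epithelia, had 136, 89 and 140 counts in +/+, 83, 119 and 117 in +/-, 135, 235 and 153 in neo/neo, and 133, 196 and 132 in neo/-. All 4 groups overlapped in CPM with at least 1 other. The log2 fold change was -0.08 (SE 0.17) in +/-, 0.36 (SE 0.16; adjusted p = 0.171, edgeR) in neo/neo and 0.24 (SE 0.16; adjusted p = 0.374, edgeR) in neo/-.

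*Krt8* (chromosome 15, 101996711 to 102004342, minus strand) and *Krt18* (chromosome 15, 102028216 to 102032026, plus strand) encode the partner chains of simple epithelia and lie side by side. *Krt8* had 56, 39 and 59 counts in +/+, 43, 58 and 116 in +/-, 60, 55 and 50 in neo/neo, and 32, 52 and 44 in neo/-. *Krt18* had 60, 59 and 59 counts in +/+, 57, 60 and 108 in +/-, 62, 74 and 68 in neo/neo, and 63, 57 and 71 in neo/-. The third +/- library was the highest for both genes, at 2.43 and 2.26 CPM. The log2 fold changes in +/- were 0.58 (SE 0.27) for *Krt8* and 0.43 (SE 0.21) for *Krt18*, and both fell to 0.16 without that library.

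Neither gene was called in the hypomorphs. The log2 fold change of *Krt8* was -0.02 (SE 0.28; adjusted p = 0.974, edgeR) in neo/neo and -0.36 (SE 0.29; adjusted p = 0.475, edgeR) in neo/-. That of *Krt18* was 0.05 in neo/neo and 0.02 in neo/-, with 95% intervals of -0.36 to 0.46 and -0.39 to 0.43. Of all windows of 75 bases, the read length, in *Krt8* transcripts, 23.5% also occur in *Krt8-ps* or *Gm36026*. Reads with several alignments were not counted at E12.5, so *Krt8* is uncertain to that extent, whereas *Krt18* shares no window with another gene.

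The remaining members were near the floor at E12.5, set here at 3 counts per library. *Krt5* and *Krt14* encode the keratin pair of the basal epidermis (chromosome 15, 101707070 to 101712891, and chromosome 11, 100203162 to 100207548, both on the minus strand). *Krt5* had 2, 1 and 0 counts in +/+, 1, 74 and 0 in +/-, 0, 2 and 0 in neo/neo, and 4, 8 and 10 in neo/-. *Krt14* had no count in any +/+ or neo/neo library, 0, 9 and 0 in +/-, and 0, 5 and 1 in neo/-. For a library with 0 counts, up to 3 counts remain possible by counting error alone. *Krt19* (chromosome 11, 100140810 to 100148665, minus strand), a keratin of simple and embryonic epithelia, had 5, 3 and 1 counts in +/+, 0, 26 and 2 in +/-, 4, 7 and 7 in neo/neo, and 3, 10 and 3 in neo/-. *Pkp1* (chromosome 1, 135871395 to 135919207, minus strand), the plakophilin of stratified epithelia, had 1, 2 and 3 counts in +/+, 1, 11 and 3 in +/-, 1, 2 and 1 in neo/neo, and 2, 2 and 0 in neo/-.

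All 4 of these genes had their highest E12.5 count in the second +/- library, and this is the only E12.5 library in which all 10 members exceeded 3 counts. It also had the highest sum of the 10 meninges and head mesenchyme genes, 1228 CPM against 583 to 890 in the other E12.5 libraries. The sum of the 15 surface ectoderm regulators in this library was 61.2 CPM, within the 58.4 to 81.3 of the others. Single epithelial markers, picked out after their values were seen, stood above every other E12.5 library in it. *Trp63*, the regulator of the basal epidermis, had 0.774 CPM against at most 0.189, *Krt7* 0.865 against at most 0.347, and the adhesion protein *Cdh1* 2.68 against at most 1.70. *Krt15* had 14 counts there against at most 3. Not all markers did so: *Epcam* had 4.48 CPM there against 5.70 in the third +/- library. The sum of the other keratins was the highest at E12.5 there, at 3.59 CPM. Those of the other desmosome genes (145), the epithelial adhesion genes (149) and the cornified envelope genes (7.60) were not. *Krt10* in the second +/- library, at 8.21 CPM, lay above every +/+ library and was the lowest of the 3 values in +/-. Without this library, the log2 fold change of *Krt10* in +/- was 0.49. The part of surface or other non-neural tissue in the values of the members was not tested.

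**Figure D4:**
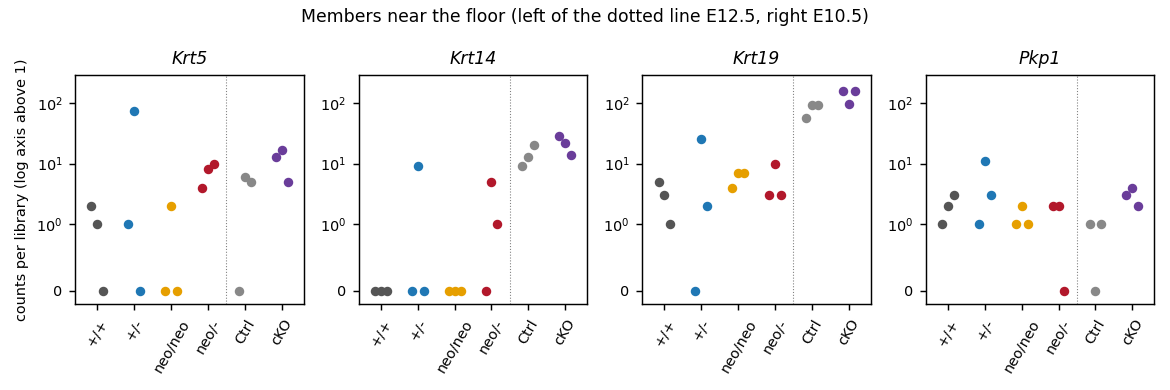
Counts per library of *Krt5*, *Krt14*, *Krt19* and *Pkp1* (vertical axis logarithmic above 1 and linear below), with E12.5 genotypes left and E10.5 groups right of the dotted line; each point is a library. A single +/- library holds 74, 9, 26 and 11 counts while most other E12.5 libraries lie at or near 0, and *Krt19* exceeds 50 counts in every E10.5 library.

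At E10.5, 8 members passed the filter, *Krt14* and *Krt19* in addition to those at E12.5. edgeR called 0 of the 8 in cKO, where 5.75% of all 18435 genes were called higher and 5.7% lower. At an unadjusted p under 0.05, 2 members passed, *Krt10* and *Pkp2*, and DESeq2 called 0. The median log2 fold change over the 8 was 0.34, beside -0.00 over all genes, and 0.15 over the 9 members that passed the filter without the first Ctrl library.

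*Pkp2* had 12.5, 13.3 and 12.5 CPM in Ctrl and 14.7, 13.8 and 15.4 in cKO. The groups did not overlap, and the log2 fold change was 0.20 (SE 0.08; adjusted p = 0.153, edgeR). *Krt8* had 6.73, 13.1 and 12.02 CPM in Ctrl against 17.7, 12.7 and 10.2 in cKO. *Krt18* had 5.52, 11.05 and 8.87 CPM in Ctrl against 13.96, 8.79 and 9.40 in cKO. The groups overlapped for both, with log2 fold changes of 0.35 (SE 0.32; adjusted p = 0.551, edgeR) and 0.34 (SE 0.30; adjusted p = 0.534, edgeR).

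*Dsp* varied most, with 149, 540 and 368 counts in Ctrl against 644, 604 and 459 in cKO. Its log2 fold change was 0.43 (SE 0.52; adjusted p = 0.659, edgeR) and 0.07 without the first Ctrl library. *Krt19* had 57, 95 and 93 counts in Ctrl and 158, 98 and 159 in cKO, a log2 fold change of 0.50 (SE 0.24; adjusted p = 0.218, edgeR). *Krt14* had 9, 13 and 20 counts in Ctrl and 29, 22 and 14 in cKO, a log2 fold change of 0.38 (SE 0.38; adjusted p = 0.565, edgeR). *Krt5* had 0, 6 and 5 counts in Ctrl and 13, 17 and 5 in cKO, and *Pkp1* had at most 1 count in Ctrl and 4 in cKO.

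The first Ctrl library was the lowest of the 6 for *Krt8*, *Krt18*, *Krt19*, *Krt14*, *Dsp* and *Pkp2*, and it held the highest Ctrl level of *Krt10*. The sum of the 20 epithelial adhesion genes was also lowest in it, at 217 CPM against 265 to 318 in the other E10.5 libraries. Without it, the log2 fold change fell to 0.11 for *Krt8* and 0.10 for *Krt18*, and was 0.31 for *Krt10*.

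**Figure D5:**
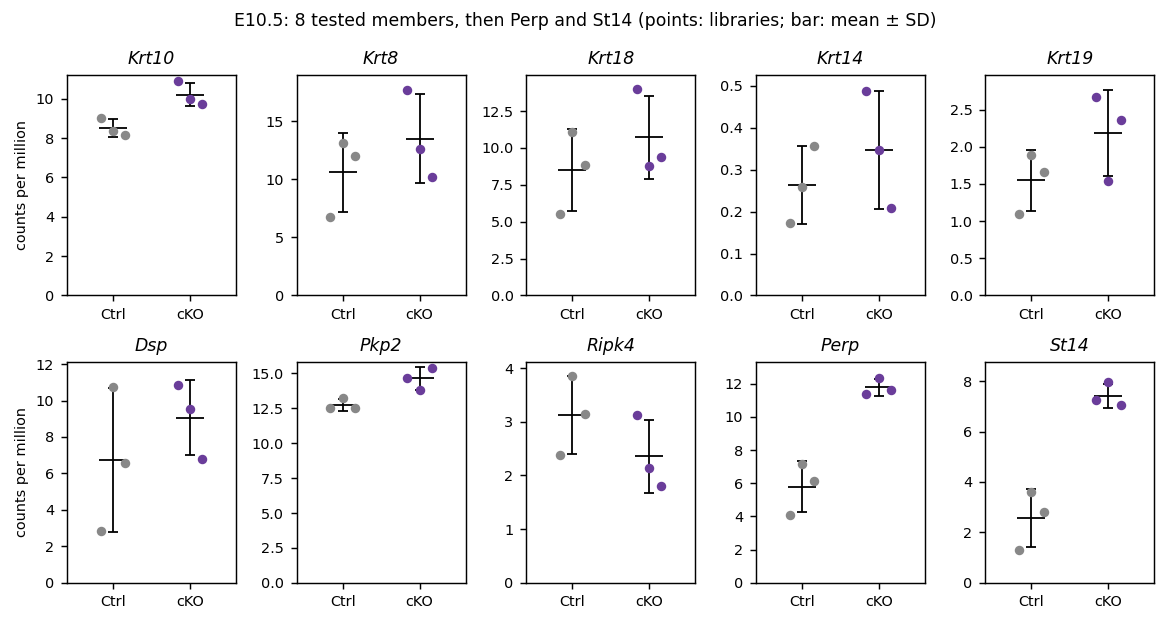
Level (CPM, linear axes from 0) of the 8 tested members and of *Perp* and *St14* in the E10.5 libraries; points are libraries and bars the mean ± SD (n = 3). The Ctrl and cKO libraries overlap for *Krt8*, *Krt18*, *Krt14*, *Krt19*, *Dsp* and *Ripk4*, and do not for *Krt10*, *Pkp2*, *Perp* and *St14*.

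Other genes of desmosomes and surface epithelium were followed as lists. Of 15 other desmosome genes, 10 were tested in cKO and 1 was higher, against 5.75% of all genes. It was *Perp*, a membrane protein of desmosomes and a target of p53. *Perp* rose from 4.11, 7.15 and 6.14 CPM in Ctrl to 11.4, 12.3 and 11.6 in cKO (log2 fold change 1.02, SE 0.17; adjusted p = 0.00615, edgeR), and the call held in all 12 alternatives. At an unadjusted p under 0.05, 4 of the 10 desmosome genes passed by edgeR, and DESeq2 called 3 of 14 higher. The list's median log2 fold change was 0.46 in cKO, and 0.21 over the 11 genes tested without the first Ctrl library.

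Of 15 surface ectoderm regulators, 14 were tested in cKO and 2 were higher, against 5.75% of all genes. Among those 2 was *Zfp750*, a regulator of epidermal differentiation, with 9, 8 and 12 counts in Ctrl and 28, 44 and 51 in cKO (log2 fold change 1.80, SE 0.30; adjusted p = 0.00415, edgeR). Of 20 epithelial adhesion genes tested in cKO, 1 was higher, which is near the 5.75% of all genes. It was the membrane protease *St14* (log2 fold change 1.53, SE 0.31; adjusted p = 0.0276, edgeR), a call that held in 6 of 12 alternatives and was lost without the third Ctrl library or any 1 of the cKO libraries (1.47 to 1.60). At an unadjusted p under 0.05, 4 of the 14 regulators and 4 of the 20 adhesion genes passed by edgeR. DESeq2 called 1 of 15 and 2 of 20 higher. The medians of these lists were 0.40 and 0.36, and 0.23 and 0.18 over the 15 and 20 genes tested without the first Ctrl library. Beside them, 3 of 10 meninges and head mesenchyme genes were higher in cKO, against 5.75% of all genes. The sums of this list were 1026 to 1216 CPM in cKO against 828 to 920 in Ctrl. The part of this tissue in the epithelial values was not tested.

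At E12.5, 7 other desmosome genes and 18 epithelial adhesion genes were tested, and edgeR called none of them in neo/neo or neo/-. At an unadjusted p under 0.05, 2 and 0 desmosome genes and 1 and 1 adhesion genes passed in neo/neo and neo/-, and DESeq2 called 2 desmosome genes in neo/neo and 0 of the others. Of 10 surface ectoderm regulators, 1 was higher in neo/-, against 5.48% of all genes. It was *Tfap2a*, an AP-2 factor of surface ectoderm, neural crest and the midline of the brain, with 1.86, 1.75 and 2.04 CPM in +/+ against 3.31, 3.96 and 3.60 in neo/- (log2 fold change 0.94, SE 0.25; adjusted p = 0.0282, edgeR). The call held in 12 of 20 alternatives and was lost without any 1 of the +/+ and neo/- libraries (0.87 to 1.01). It was 0.51 from the first sequencing run alone (adjusted p = 0.165, edgeR) and 1.34 from the second. The neo/neo libraries of *Tfap2a*, at 2.72, 3.95 and 3.01 CPM, also lay above those of +/+, without a call (log2 fold change 0.78, SE 0.25; adjusted p = 0.0699, edgeR). Its +/- libraries had 1.43, 3.57 and 2.29 CPM. In +/-, the median log2 fold change of the 18 adhesion genes was 0.52, beside 0.00 over all genes, and 0.38 without the second +/- library. None of the 18 was called there by edgeR, where 0.0159% of all genes were higher, and 6 had an unadjusted p under 0.05. The summed levels of the list overlapped, at 140 to 151 CPM in +/- and 135 to 146 in +/+. Of the 19 keratins in the list of other epithelial keratins, which does not hold *Krt28* or *Krt222*, *Krt1* and *Krt7* were tested at E12.5, and neither passed at an unadjusted p under 0.05 by edgeR or was called by DESeq2. Of 13 genes of the cornified envelope, the tough outer shell of epidermal cells, 3 were tested in each comparison and edgeR called none, with 2 in neo/neo and 1 in neo/- at an unadjusted p under 0.05 and 0 by DESeq2.

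The lists of other tissues held the following calls. In neo/neo, where 3.71% of all genes were higher and 4.45% lower, 2 of 10 forebrain progenitor genes were higher, 2 of 8 early neuron genes lower and 1 of 8 endothelial genes lower. In neo/-, where 5.48% of all genes were higher and 5.99% lower, 2 of 8 early neuron genes were lower and 3 of 7 erythroid genes higher. In cKO, 1 of 8 endothelial genes was higher, against 5.75% of all genes. No choroid plexus and midline gene was called by edgeR in any of the 4 comparisons, with 0 in +/- and neo/neo, 2 in neo/- and 1 in cKO at an unadjusted p under 0.05 and 1 called by DESeq2 in neo/-.

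The levels of the members were also set against each other per kilobase of exon. In the +/+ libraries at E12.5, the order was *Krt10* with 2.84 CPM per kilobase, *Krt18* with 0.910, *Krt8* with 0.604, *Pkp2* with 0.481, *Ripk4* with 0.224 and *Dsp* with 0.147, followed by *Krt19* with 0.0341, *Krt5* with 0.0095 and *Pkp1* with 0.0087, with *Krt14* at 0. Among the first 7, only *Krt8* and *Pkp2* overlapped as neighbours. In the Ctrl libraries at E10.5, *Krt18* (6.06) and *Krt8* (5.88) led, ahead of *Krt10* (4.07) and *Pkp2* (2.38). *Krt18*, *Krt8* and *Krt10* overlapped in that order, as did *Krt19* (0.835), *Ripk4* (0.791) and *Dsp* (0.699).

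Between E10.5 Ctrl and E12.5 +/+, *Krt19* was 24.5 times, *Krt8* 9.74 times, *Krt18* 6.66 times, *Pkp2* 4.95 times, *Dsp* 4.75 times and *Ripk4* 3.54 times as high in CPM at E10.5, and *Krt10* 1.43 times. The ranges of the groups did not overlap for any of these 7. Stage, genotype of the controls, pooling, dissection and sequencing differ together between the tables, so these ratios are given side by side and without a test.

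Across the 12 E12.5 libraries, the members did not share 1 profile. Pearson's r of log2 CPM was 0.71 between *Krt8* and *Krt18*, 0.53 between *Krt18* and *Dsp*, and -0.90 between *Krt10* and *Ripk4*. The genes with the most similar profile to *Krt10* were *Tmem209* (r = 0.98), *Mettl15* (0.98) and *BC025920* (0.98), and to *Ripk4* they were *Slc36a4* (0.98), *Dync1li2* (0.97) and *Zfp354a* (0.97). For *Pkp2* they were *Zkscan17* (0.96), *Pabpc4* (0.95) and *Cdc25b* (0.95), and for *Dsp* they were *Exoc2* (0.91), *Col14a1* (0.89) and *Klhl28* (0.87). *Krt8* was closest to *Mmadhc* (0.89), *Eri2* (0.87) and *Maob* (0.83), and *Krt18* to *Thoc1* (0.89), *Zfp91* (0.89) and *Taf5* (0.82). None of these 18 genes is in the 11 lists. The libraries share genotypes and the same 2 sequencing runs, and each is the highest of many r values, so these are descriptions of 12 libraries.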

How the data were processed

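RNA was sequenced from 18 libraries, 12 at E12.5 and 6 at E10.5, each in 2 runs. According to the study's methods and the submitters' processing notes, reads of 75 bases in pairs were trimmed with Trim Galore 0.4.1, aligned to GRCm38.p4 with TopHat2 2.1.0 and counted on genes with featureCounts 1.5.0. The authors deposited unnormalized gene counts, with 1 column for each run. Per the file headers, the E12.5 counts took no account of strand and left out reads on several genes or with several alignments; the counting options at E10.5 are not given in the sources used here. Identifiers of 46005 of the 46603 genes matched a symbol.

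Runs were summed per library. Genes were filtered with filterByExpr, scaled by TMM and tested with edgeR 4.0.16 (robust quasi-likelihood fit, R 4.3.3), with the 12 E12.5 libraries in a single fit and the 6 E10.5 libraries apart. Adjusted p-values follow Benjamini and Hochberg across every gene in a fit, with calls under 0.05. The fits were tested on simulated data with 200 changed genes. At E12.5 they recovered 72.5% of these with 6 false calls, and at E10.5 80.5% with 17 false calls. The raised genes had median fitted log2 fold changes of 0.99 at E12.5 and 1.01 at E10.5. Recovery of smaller changes was not tested. SE is the log2 fold change divided by the root of F. Intervals called 95% are 1.96 SE on each side, a normal multiplier that makes them narrower than the quasi-likelihood test. The E12.5 comparisons share their +/+ libraries. P-values measure the spread between libraries, of single embryos at E12.5. Floors cover counting error only, while SE and intervals include the spread between libraries.

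The members, gene lists and tests were chosen with earlier results of these data known. Named genes are all members, *Chd8*, genes whose exons overlap a member, at most 3 called genes per epithelial list and comparison, and the 3 genes closest in profile to each member with a mean of at least 10 counts. A further called gene of the surface ectoderm list is not reported here. *Krt28* and the other neighbours were added after the data were seen. Alternatives were DESeq2 1.42.0, RLE scaling, no filter, a block for replicate number, runs taken singly, each library left out, only the 2 groups compared and a sex term.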

Additional observations from a re-analysis of the deposited data

How the results depend on the processing

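Over 20 alternatives at E12.5, *Krt10* was called in neo/neo and neo/- in all, at log2 fold changes of 0.62 to 0.72 and 0.87 to 0.95, and over 12 at E10.5 in none, at 0.20 to 0.32. The members called in neo/neo and neo/- fell from 2 to 1 with DESeq2, which gave *Ripk4* no adjusted p, and in neo/neo to 1 with the second run alone, where *Ripk4* missed the threshold. Directions turned for values near 0: *Krt8* in neo/neo was 0.026 with the second run alone and -0.25 to 0.10 with a library left out, *Krt18* in neo/neo -0.10 and -0.028 to 0.13, *Dsp* in neo/neo -0.10 to 0.24 with a library left out, and *Krt18* in neo/- -0.10 to 0.17, and -0.012 with a sex term. *Krt10* in +/- was 0.38 from the first run and 0.57 from the second. Over all genes, the 4 calls in +/- became 15 with DESeq2, 2 with the replicate block, 1 with only the 2 groups compared and 2 to 6 with a library left out. The 1534 in neo/neo became 430 with only the 2 groups compared, 1005 with a sex term and 435 to 2605 with a library left out. With a library left out, the 2158 in neo/- became 1015 to 2574 and the 2110 in cKO 538 to 2483; the cause was not tested. Replicate numbers were not shown to pair mutants with controls, whose same-numbered deviations correlated between -0.27 and 0.11. Those of +/- and neo/neo, which were not compared, correlated at 0.11 to 0.20. With the replicate block, 2, 2 and 0 members were called in neo/neo, neo/- and cKO. Depth limits *Krt5*, *Krt14*, *Krt19* and *Pkp1* at E12.5, mostly under 10 counts.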
